A study of Mus musculus with 6 samples.

Results

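The 35 genes described here are interferon-induced genes of the mouse, taken from the 46078 genes of the deposited counts by matching each gene name to its Ensembl identifier in the authors' deposited comparison. They were measured in RNA from the epithelial fraction of the colon of mice aged 2 months. There were 3 libraries from wild type mice and 3 from mice labelled Lingo3-/-, which are homozygous for a knockout of Lingo3, a gene of a transmembrane protein with leucine-rich repeats. The mice were kept naive, with no treatment named. The sources used here do not give the strain, the sex or the design of the knockout allele. For wild type replicate 1 the label gives a wash with 5 mM EDTA and 2.5 mM DTT and for the other 5 libraries EDTA alone, while the protocol common to all names both reagents. All 35 genes passed the filter on low counts.

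Interferons are secreted signals of infection. Type I and type III interferons act through the kinases Jak1 and Tyk2 to form a complex that includes Stat2 and Irf9 and binds interferon-stimulated response elements (ISRE). Interferon gamma acts through Jak1 and Jak2 and on gamma-activated sites (GAS). The first route is known for antiviral effectors that bind viral RNA, degrade it or hold virions at the cell surface. The second is known for GTPases that attack the membranes around intracellular microbes, although many genes answer to both. In the gut, antiviral genes are kept at a basal level in epithelial cells, and lymphocytes between these cells are a source of interferon gamma. Here 25 genes were grouped as antiviral and related effectors, 4 as transcription factors and 6 as interferon-inducible GTPases.

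Promoter windows show how these genes differ in the 2 elements. RefSeq windows on GRCm38.p6, which run from 250 bases before to 50 bases after a gene's start, were found for 27 of the 35 genes. There were 32 such windows, and a gene was counted for an element if any of its windows held the letters. No window was matched for Oas2, Usp18, Mx1, Mx2, Zbp1, Dhx58, Parp14 and Iigp1. The ISRE letters, GAAANNGAA and a further A, on either strand, stood in the windows of 19 of the 27 genes (70.4%), against 3.99% of the 27025 genes in the whole promoter set. They were found in 13 of 18 antiviral genes, 1 of 4 transcription factor genes and 5 of 5 GTPase genes. The GAS letters TTCNNNGAA, which read the same on both strands, stood in 6 of the 27 (22.2%), against 9.55% of all genes. These 6 were Bst2, Ifit2, Oas1a, Irf1, Gbp7 and Igtp, and in Bst2 alone the GAS letters overlapped those of an ISRE. Without the further A 20 of the 27 genes matched, against 9.76% of all genes. A match of letters describes the window and does not show that a factor binds there.

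The windows below are those of the members past the threshold that had one, with the near-identical neighbour of Oas1a, the GTPase gene Igtp and the transcription factor gene Irf1 for comparison. Each runs 5′ to 3′ along its gene, and capitals mark ISRE and GAS letters. Oas1a lies at chr5:120907476-120907775, Oas1g at chr5:120887564-120887863, Bst2 at chr8:71537423-71537722, Ifi44 at chr3:151749861-151750160 and Irgm1 at chr11:48871371-48871670, all on the minus strand. Igtp lies at chr11:58199306-58199605, Ifi208 at chr1:173673415-173673714 and Irf1 at chr11:53769764-53770063, all on the plus strand. Another Irf1 window, at chr11:53770223-53770522, held neither ISRE nor GAS letters and is not shown.
Oas1a: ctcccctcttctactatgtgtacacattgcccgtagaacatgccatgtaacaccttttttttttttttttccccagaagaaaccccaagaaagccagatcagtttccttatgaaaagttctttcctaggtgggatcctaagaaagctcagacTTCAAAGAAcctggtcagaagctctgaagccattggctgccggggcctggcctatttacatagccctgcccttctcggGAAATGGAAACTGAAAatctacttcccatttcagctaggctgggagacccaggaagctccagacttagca
Oas1g: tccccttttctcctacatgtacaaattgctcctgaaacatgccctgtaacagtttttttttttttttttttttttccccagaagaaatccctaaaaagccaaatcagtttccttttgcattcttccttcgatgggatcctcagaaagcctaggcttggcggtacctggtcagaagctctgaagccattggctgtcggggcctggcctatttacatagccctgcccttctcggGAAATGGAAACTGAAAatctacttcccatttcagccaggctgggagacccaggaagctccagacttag
Bst2: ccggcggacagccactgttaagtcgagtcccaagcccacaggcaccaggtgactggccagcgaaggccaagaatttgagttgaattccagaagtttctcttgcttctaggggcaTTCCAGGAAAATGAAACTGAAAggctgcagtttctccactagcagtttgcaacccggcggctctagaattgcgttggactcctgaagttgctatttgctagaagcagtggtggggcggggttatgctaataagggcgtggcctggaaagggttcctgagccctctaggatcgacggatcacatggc
Ifi44: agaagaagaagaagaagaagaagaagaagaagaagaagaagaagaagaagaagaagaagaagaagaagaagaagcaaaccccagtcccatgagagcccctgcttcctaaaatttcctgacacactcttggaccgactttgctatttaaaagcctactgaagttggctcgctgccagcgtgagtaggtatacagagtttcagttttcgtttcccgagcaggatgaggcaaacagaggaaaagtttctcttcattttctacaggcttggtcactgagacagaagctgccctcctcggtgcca
Irgm1: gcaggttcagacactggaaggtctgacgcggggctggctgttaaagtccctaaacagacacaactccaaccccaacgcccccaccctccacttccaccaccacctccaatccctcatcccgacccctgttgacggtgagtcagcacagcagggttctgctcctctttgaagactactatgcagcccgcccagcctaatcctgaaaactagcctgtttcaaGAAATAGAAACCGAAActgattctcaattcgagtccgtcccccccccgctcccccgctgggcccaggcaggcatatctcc
Igtp: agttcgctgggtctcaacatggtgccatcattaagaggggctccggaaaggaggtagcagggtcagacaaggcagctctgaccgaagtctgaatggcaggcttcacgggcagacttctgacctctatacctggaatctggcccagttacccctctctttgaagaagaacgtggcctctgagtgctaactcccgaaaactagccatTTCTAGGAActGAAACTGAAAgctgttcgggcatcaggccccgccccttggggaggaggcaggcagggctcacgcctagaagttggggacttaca
Ifi208: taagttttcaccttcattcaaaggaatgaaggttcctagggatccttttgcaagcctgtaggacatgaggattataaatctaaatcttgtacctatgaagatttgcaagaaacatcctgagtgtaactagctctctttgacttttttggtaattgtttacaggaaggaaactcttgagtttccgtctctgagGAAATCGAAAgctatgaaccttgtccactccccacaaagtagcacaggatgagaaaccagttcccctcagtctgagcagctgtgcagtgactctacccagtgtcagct
Irf1: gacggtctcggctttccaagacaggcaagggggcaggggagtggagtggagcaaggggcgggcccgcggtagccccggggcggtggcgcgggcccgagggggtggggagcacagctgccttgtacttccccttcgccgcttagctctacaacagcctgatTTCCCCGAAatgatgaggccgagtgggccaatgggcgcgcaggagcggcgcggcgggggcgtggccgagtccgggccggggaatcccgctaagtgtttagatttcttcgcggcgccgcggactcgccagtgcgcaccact
The first ISRE letters began at position -20 from the gene's start in Oas1a, -18 in Oas1g, -130 in Bst2, -30 in Irgm1, -34 in Igtp and -58 in Ifi208. The GAS letters began at -136 in Bst2, where they overlapped ISRE letters, -98 in Oas1a, -45 in Igtp and -90 in Irf1. The Ifi44 window held neither, although it held the shorter ISRE letters. The windows of Oas1a and Oas1g were 85.3% identical over their alignment, and Oas1g lacked the GAS letters that Oas1a carried.

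The libraries held 11868000 to 28029583 counts over genes, and every wild type library was deeper than every knockout library. Mitochondrial transcripts took 46.8% ± 1.6 of the counts in wild type and 35.5% ± 0.823 in knockout (SD, n = 3 each). Lingo3 itself had 3, 3 and 1 counts in the wild type replicates 1, 2 and 3 and 2, 0 and 1 in the knockout replicates, so it does not check the genotype labels. The 12 epithelial markers summed to 5778 to 6871 CPM, which are counts scaled to a common library size, in wild type and 6795 to 8283 in knockout, and 3 of 12 were higher by edgeR, with a median log2 fold change of 0.24. Their part in the results on the interferon-induced genes was not tested. The 20 T cell markers summed to 443 to 524 CPM in wild type and 161 to 282 in knockout. Of these 18 of 20 were lower by edgeR (90.0%, against 5.97% of all genes tested). B cell markers summed to 23.6 to 59.5 and 13.8 to 18.1 CPM, stromal markers to 344 to 997 and 230 to 470, and myeloid markers to 89.6 to 108 and 68.0 to 244. Every marker of these lists had counts in at least 1 library.

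In knockout, 8 of the 35 interferon-induced genes rose and 1 fell past the threshold of 0.05 on the adjusted p, with 16856 genes tested by the quasi-likelihood method of edgeR. These shares were 22.9% and 2.86%, against 9.43% of all genes tested called higher and 5.97% called lower. The genes that rose were Iigp1, Ifi44, Oas2, Bst2, Mx1, Usp18, Irgm1 and Oas1a, and the gene that fell was Ifi208. The other 26 did not pass. The median log2 fold change was 0.21 over the members and -0.03 over all genes tested, and 27 of the 35 members had a positive fold change, against 47.2% of all genes. In 13 members every knockout library was above every wild type library, and in 2 every one was below, while 19.7% and 16.0% of all genes stood apart in these directions, 35.6% in all. The members, like the other lists, were chosen with earlier results of these data known, so these comparisons describe the list and do not test it. Among 137 other tested genes of the interferon pathway 7.30% were higher and 6.57% lower, with a median log2 fold change of 0.01. Separate animals are not stated for the libraries, and the p-values reflect only the spread among these samples, which may be technical. In bulk RNA, a change in the number of cells of a type and a change in RNA per cell cannot be told apart.

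**Figure D1:**
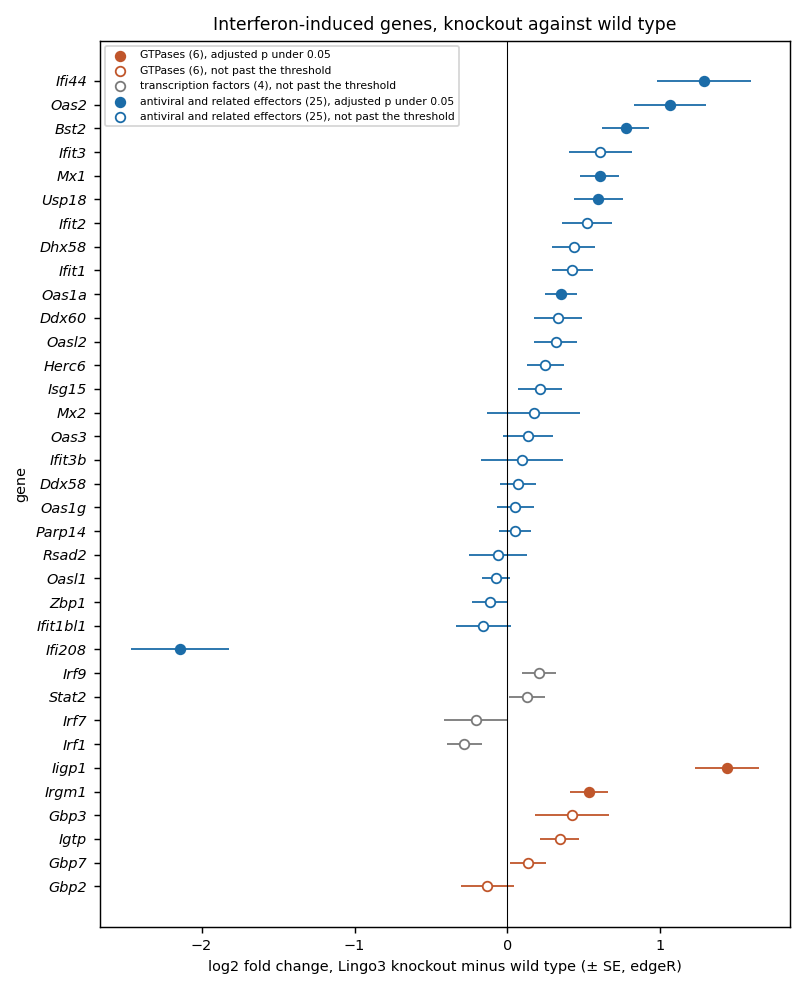
Log2 fold change, Lingo3 knockout minus wild type, for each of the 35 genes, with its standard error from edgeR. Filled points passed an adjusted p of 0.05; 8 lie above 0 and Ifi208 at -2.14 is the only filled point below 0.

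The number of members called moved with the scaling. With library totals in place of TMM factors, which moved all genes up by a median of 0.28 on the log2 scale, 22 members were higher and 1 lower. With upper-quartile factors 6 were higher and 2 lower, and over all genes the calls were then 1137 higher and 1365 lower, against 1589 and 1007 with TMM. Leaving out wild type replicate 1 or wild type replicate 3 left 4 members higher, and leaving out knockout replicate 2 left 5. Iigp1, Mx1, Bst2 and Ifi208 kept their calls without each single library.

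Over all genes tested 9.43% were called higher and 5.97% lower, which are the shares to set beside the counts of the groups. Among the 25 antiviral and related effectors 6 rose, 1 fell and 18 did not pass, and their median log2 fold change was 0.25. The count of 6 was 2 without wild type replicate 1 or without wild type replicate 3, and 9 by DESeq2. Among the 6 GTPases 2 rose (33.3%, against 9.43% of all genes tested), 0 fell and 4 did not pass, and their median was 0.38. The count of 2 was 1 without knockout replicate 2 or without knockout replicate 3, and 2 by DESeq2. Most genes of both groups thus did not pass. For the GTPases the count of lower genes was also 0 at an unadjusted p under 0.05 by edgeR. It was 0 as well at an adjusted p under 0.05 by DESeq2 and by limma-voom. Whether the groups differ from each other was not tested, since genes are not replicates of a condition.

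Oas2, one of the synthetases whose product activates the RNA-cutting enzyme RNase L, had 19.4, 27.9 and 22.4 CPM in wild type replicates 1, 2 and 3 and 46.1, 64.1 and 35.3 CPM in the knockout replicates. Every knockout library was above every wild type library. Its level rose from 23.2 ± 4.35 to 48.5 ± 14.5 CPM (SD, n = 3), which is, on the log2 scale, a difference of 1.07 ± 0.23 (SE; by edgeR, adjusted p = 0.0266). Without wild type replicate 1, wild type replicate 3 or knockout replicate 1 its edgeR adjusted p was 0.0801, 0.0920 or 0.0569. The gene lies on chromosome 5 from 120730333 to 120749853 (GRCm38), in a run of synthetase genes that also holds Oas3, Oas1g and Oas1a. The gene model Gm43068 overlaps it on the other strand, and the strand setting of the counting is not given in the sources used here.

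Oas3, another synthetase of the run, stood at 62.0, 72.4 and 62.8 CPM in wild type and 89.8, 72.1 and 54.2 CPM in knockout. The groups overlapped, and the log2 fold change of 0.14 ± 0.16 (SE) did not pass (edgeR adjusted p = 0.607). The count of Oas2 divided by that of Oas3, which does not depend on library scaling, was 0.312, 0.386 and 0.357 in the wild type libraries and 0.513, 0.889 and 0.652 in the knockout libraries. This ratio was chosen after the values were seen and is given with no test.

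Oas1a had 40.6, 41.2 and 40.1 CPM in wild type and 45.7, 58.7 and 50.8 CPM in knockout, and its groups did not overlap. It rose by a log2 fold change of 0.35 ± 0.10 (SE; by edgeR, adjusted p = 0.0425). The call was narrow: only the fit without knockout replicate 1 kept it among the fits without single libraries, with a highest edgeR adjusted p of 0.183, and upper-quartile factors also ended it (0.0839). Its neighbour Oas1g stood at 29.5 ± 1.34 and 30.5 ± 5.17 CPM (SD, n = 3), and its log2 fold change of 0.05 did not pass (edgeR adjusted p = 0.803). Of all 50-base stretches in the transcripts of Oas1a, 57.6% also occur in those of Oas1g, so reads could be split between them and both values are uncertain. Summed over the pair, the level was 70.1 ± 0.820 CPM in wild type and 82.2 ± 11.7 CPM in knockout (SD, n = 3). The synthetase-like genes did not pass. Oasl1, which restrains translation of Irf7 in mice, had a log2 fold change of -0.08 and Oasl2 had 0.31 (edgeR adjusted p = 0.604 and 0.153).

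Ifi44, an interferon-induced cytoplasmic protein, had 5.47, 8.67 and 5.64 CPM in wild type and 14.6, 22.8 and 10.7 CPM in knockout. All knockout libraries were above all wild type libraries, with replicate 2 at the top. The log2 fold change was 1.29 ± 0.31 (SE; by edgeR, adjusted p = 0.0351). Without wild type replicate 1, wild type replicate 3 or knockout replicate 1 the edgeR adjusted p was 0.107, 0.106 or 0.0604, and with counts thinned to the smallest total it was 0.126. The gene spans 151730922 to 151749960 of chromosome 3, minus strand.

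Bst2 encodes tetherin, which holds budding virions at the cell surface. It had 6.31, 8.48 and 6.29 CPM in wild type and 11.6, 13.1 and 11.4 CPM in knockout, with the groups apart. The mean went from 7.03 ± 1.26 to 12.03 ± 0.936 CPM (SD, n = 3), which is, on the log2 scale, a difference of 0.77 ± 0.15 (SE; by edgeR, adjusted p = 0.00744). The log2 fold change lay between 0.71 and 0.96 when single libraries were left out.

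Mx1, a dynamin-like GTPase that blocks viruses in the nucleus in mice, had 22.2, 21.4 and 22.4 CPM in wild type and 29.9, 40.9 and 29.4 CPM in knockout. Its wild type libraries were close together and all knockout libraries were above them. The log2 fold change was 0.60 ± 0.13 (SE; by edgeR, adjusted p = 0.00972). Many laboratory strains carry a broken Mx1 allele, and counts of the transcript do not show whether the protein is made. Mx2, beside it on chromosome 16 and annotated as a polymorphic pseudogene, stood at 6.22 ± 1.45 and 6.94 ± 3.14 CPM (SD, n = 3), with a log2 fold change of 0.17 that did not pass (edgeR adjusted p = 0.743).

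Usp18 removes Isg15 from proteins and damps signalling at the type I receptor. It had 8.88, 12.1 and 9.15 CPM in wild type and 13.9, 18.1 and 13.5 CPM in knockout, a log2 fold change of 0.59 ± 0.16 (SE; by edgeR, adjusted p = 0.0263). The groups did not overlap. Each of 4 fits that left out a library (wild type 1 or 3, knockout 2 or 3) ended the call, the highest edgeR adjusted p being 0.108, as did upper-quartile factors (0.0508). Isg15 itself, the ubiquitin-like modifier that Usp18 removes, had 13.4, 16.1 and 15.4 CPM in wild type and 20.03, 18.1 and 13.6 CPM in knockout. These groups overlapped and its log2 fold change of 0.21 ± 0.14 (SE) did not pass (edgeR adjusted p = 0.332). Herc6, which attaches Isg15 in the mouse, had a log2 fold change of 0.25 and did not pass (edgeR adjusted p = 0.176).

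**Figure D2:**
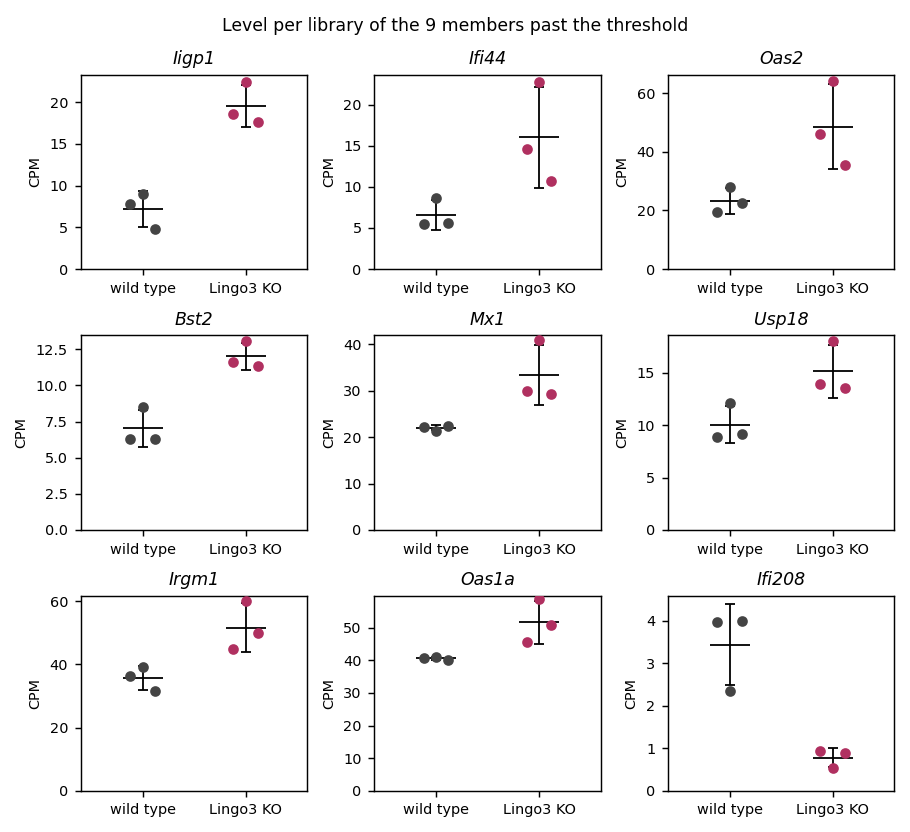
CPM per library for the 9 members with an adjusted p under 0.05, with points for libraries, a horizontal line for the mean and bars for the SD (n = 3); each panel has its own axis from 0. In each panel the groups stand apart, with Ifi208 lower and the others higher in knockout.

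The Ifit genes encode proteins that bind foreign RNA and lie together on chromosome 19 between the start of Ifit2 at 34550694 and the end of Ifit1 at 34650009. None of the 5 passed in the edgeR fit used throughout. Ifit1 came closest, with 66.7, 70.4 and 63.0 CPM in wild type and 109, 85.8 and 73.3 CPM in knockout, and its groups did not overlap. Its log2 fold change was 0.43 ± 0.13 (SE; by edgeR, adjusted p = 0.0516). Ifit2 had 0.52 ± 0.16 (SE; by edgeR, adjusted p = 0.0542) and Ifit3 0.61 ± 0.21 (SE; by edgeR, adjusted p = 0.0770), and neither had groups that overlapped. With DESeq2 on the same counts all 3 passed, at an adjusted p of 0.0237 for Ifit1, 0.0242 for Ifit2 and 0.0313 for Ifit3. In the authors' deposited table their adjusted p-values were 0.0240, 0.0229 and 0.0288. By edgeR without a single library, each of the 3 failed in 5 of 6 fits. The exception was the fit without knockout replicate 3 for Ifit1 (edgeR adjusted p = 0.0337). For Ifit2 and Ifit3 it was the fit without wild type replicate 2 (edgeR adjusted p = 0.0210 and 0.0293). Ifit1 also passed with counts thinned to the smallest total (edgeR adjusted p = 0.0485).

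Ifit3b, a near copy of Ifit3, stood at 4.72 ± 0.933 and 4.98 ± 1.95 CPM (SD, n = 3), and its log2 fold change was 0.10 (edgeR adjusted p = 0.834). Of the 50-base stretches of Ifit3, 51.2% also occur in Ifit3b, so the split between the pair is uncertain. Their sum was 13.4 ± 2.67 CPM in wild type and 18.3 ± 5.37 CPM in knockout (SD, n = 3), and these ranges overlapped. Ifit1bl1 had the highest level per length of all members, at 234 CPM per kilobase of exon in wild type and 210 in knockout. In CPM it had 670, 416 and 503 in wild type and 397, 481 and 547 in knockout. The groups overlapped, and the log2 fold change of -0.16 ± 0.18 (SE) did not pass (edgeR adjusted p = 0.587).

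The helicase genes Ddx58, Dhx58 and Ddx60 and the genes Zbp1, Parp14 and Rsad2 did not pass. Ddx58 encodes RIG-I, which detects viral RNA ends, and had 34.8 ± 4.29 and 36.5 ± 4.14 CPM (SD, n = 3). Dhx58, a regulator of RIG-I, had 11.2 ± 1.53 and 15.1 ± 2.14 CPM (SD, n = 3). Its groups did not overlap, and its log2 fold change of 0.43 fell short of the threshold (edgeR adjusted p = 0.0586). The helicase gene Ddx60 had 166, 179 and 162 CPM in wild type and 242, 239 and 156 CPM in knockout, so that knockout replicate 3 was below all others. Its log2 fold change was 0.33 (edgeR adjusted p = 0.176), and it was 0.51 without that library (edgeR adjusted p = 0.0309). Zbp1, a sensor that triggers necroptosis, had -0.12, and the ADP-ribosyltransferase gene Parp14 had 0.05 (edgeR adjusted p = 0.525 and 0.791). Rsad2 encodes viperin, which makes a chain-terminating nucleotide. It had 60.8 ± 7.95 and 58.1 ± 15.7 CPM (SD, n = 3) and did not pass (log2 fold change -0.06, edgeR adjusted p = 0.852).

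Ifi208 was the exception in direction. It belongs to the PYHIN family, which includes sensors of DNA, and its gene spans 173673675 to 173698395 on chromosome 1. Its counts were 85, 62 and 92 in wild type and 18, 10 and 11 in knockout, or 3.97, 2.34 and 3.99 CPM against 0.927, 0.530 and 0.880 CPM. The groups did not overlap, and the log2 fold change was -2.14 ± 0.32 (SE; by edgeR, adjusted p = 0.00236), 22.7% of the wild type level. It lay between -2.33 and -1.90 without single libraries. Of its 50-base stretches, 20.9% occur in other genes, most of them in its neighbour Ifi213. Its relatives Ifi209 and Ifi203 also fell, Ifi209 from 8.20 ± 1.78 to 3.18 ± 0.246 CPM and Ifi203 from 10.1 ± 1.86 to 5.71 ± 1.41 CPM (SD, n = 3). Their log2 fold changes were -1.37 and -0.83 (edgeR adjusted p = 0.00191 and 0.0192). The other listed genes of the family that were tested did not pass, with log2 fold changes of 0.52 for Ifi204, -0.03 for Ifi211, -0.61 for Ifi213, -0.56 for Mndal, -0.69 for Ifi206 (Gm4955) and -0.36 for Aim2. The call of Ifi203 was lost without each of 3 libraries, with a highest edgeR adjusted p of 0.0778. Of the 20 T cell markers 18 fell beside these genes, and the list had a median log2 fold change of -1.04. Their part in the fall of Ifi208 was not tested.

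Iigp1 led the GTPases. It belongs to the immunity-related GTPases, which load onto the membranes around intracellular parasites and bacteria. It had 7.81, 9.01 and 4.81 CPM in wild type and 18.6, 22.4 and 17.6 CPM in knockout. The lowest knockout library was above the highest wild type library by more than either group's SD. The log2 fold change was 1.44 ± 0.21 (SE; by edgeR, adjusted p = 0.00342), and it was 1.23 to 1.66 without single libraries.

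Irgm1, which in mice guards the cell's own membranes from such effectors, had 36.3, 39.0 and 31.7 CPM in wild type and 45.01, 60.1 and 49.8 CPM in knockout. The groups did not overlap, and the log2 fold change was 0.53 ± 0.12 (SE; by edgeR, adjusted p = 0.0138). Without knockout replicate 2 or 3 the edgeR adjusted p was 0.0566 or 0.0505. Igtp, another guard of this family, had 17.0 ± 2.72 and 21.5 ± 1.91 CPM (SD, n = 3). Its groups did not overlap either, but its log2 fold change of 0.34 ± 0.13 (SE) did not pass (edgeR adjusted p = 0.0962). Of the 50-base stretches of Igtp, 11.8% occur in Irgm2, which overlaps it on the same strand.

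The 3 guanylate-binding proteins among the members, large GTPases that coat bacteria and vacuoles, did not pass. Gbp2 had 67.0, 48.1 and 40.8 CPM in wild type and 50.3, 42.2 and 49.9 CPM in knockout, and the groups overlapped (log2 fold change -0.13, edgeR adjusted p = 0.643). Gbp3 had 12.4 ± 3.59 and 16.5 ± 3.50 CPM and Gbp7 25.3 ± 3.32 and 27.7 ± 2.73 CPM (SD, n = 3). Their log2 fold changes were 0.42 and 0.13 (edgeR adjusted p = 0.273 and 0.469). All 3 lie close together on chromosome 3, and a gene model on the same strand overlaps Gbp7. The count of Iigp1 divided by that of Gbp2 was 0.117, 0.187 and 0.118 in the wild type libraries and 0.369, 0.532 and 0.353 in the knockout libraries, a ratio chosen after the values were seen.

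Of the 4 transcription factors 0 passed in either direction by edgeR, DESeq2 or limma-voom, and 1 passed downwards at 0.05 without adjustment. That gene was Irf1, a target and mediator of interferon gamma, with 178, 143 and 153 CPM in wild type and 117, 135 and 138 CPM in knockout. Each knockout library was below each wild type library, and the log2 fold change of -0.28 ± 0.11 (SE) did not pass (edgeR adjusted p = 0.115). It passed with upper-quartile factors (edgeR adjusted p = 0.0462), and with library totals only its log2 fold change was 0.00.

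Irf7, the factor that amplifies type I interferon production, had 256, 269 and 258 CPM in wild type and 316, 179 and 183 CPM in knockout. Knockout replicate 1 was above all wild type libraries and the other 2 were below them. The log2 fold change of -0.21 ± 0.21 (SE) did not pass (edgeR adjusted p = 0.536), but without knockout replicate 1 it was -0.52 (edgeR adjusted p = 0.0151). Stat2 and Irf9, partners in the complex that binds the ISRE, had log2 fold changes of 0.13 and 0.21 (edgeR adjusted p = 0.487 and 0.233). Irf9 overlaps Rnf31 on the same strand, so its count is less certain.

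Replicate 2 was the highest library of its group for most members in both genotypes. Among the 3 knockout libraries, replicate 2 was the highest for 22 of the 35 members (62.9%), replicate 1 for 11 and replicate 3 for 2, while over all genes tested the shares were 30.3%, 33.6% and 36.1%. Replicate 1 was the highest for Isg15, Ifit1, Ifit3, Ifit3b, Oas3, Oasl1, Rsad2, Ddx60, Ifi208, Irf7 and Gbp2. Replicate 2 was the highest for the other GTPases and for all 8 genes that rose. Knockout replicate 3, the shallowest library, was the lowest of its group for 24 of 35 members, against 5193 of the 16856 genes tested. Among the wild type libraries replicate 2 was the highest for 24 of 35 members (68.6%, against 30.8% of all genes). Wild type replicate 3 was the lowest of its group for all 6 GTPases. Knockout replicate 2 also had the lowest T cell marker sum of all libraries, 161 CPM, and the lowest myeloid sum, 68.0 CPM, and the part of these cells in the pattern was not tested.

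**Figure D3:**
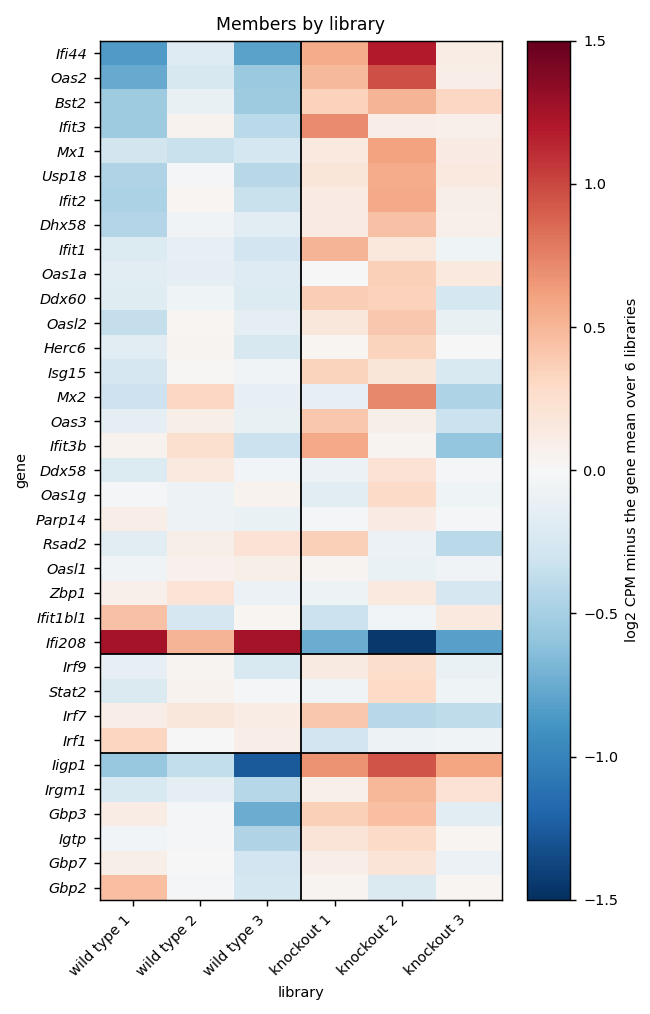
Log2 CPM of each member minus its mean over the 6 libraries, by library, with lines between the antiviral effectors, the transcription factors and the GTPases and between genotypes. The GTPases were lowest in wild type replicate 3, Ifi208 was high in wild type, and Irf7 was high in knockout replicate 1.

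Levels between genes were compared per kilobase of exon. In wild type they ran from 0.653 CPM per kilobase for Ifi208 to 234 for Ifit1bl1. The transcription factor genes Irf7 and Irf1 followed at 69.1 and 39.8, then Ifit1 at 25.1 and Oas1a at 21.6. The 3 members with the lowest wild type levels per kilobase, Ifi208, Ifi44 at 1.08 and Iigp1 at 1.24, were also the 3 with the largest absolute log2 fold changes. In total counts over the 6 libraries these genes had 278, 1324 and 1521, and the SE of their log2 fold changes was 0.32, 0.31 and 0.21. The wild type level also enters the fold change, so the 2 measures are not independent.

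**Figure D4:**
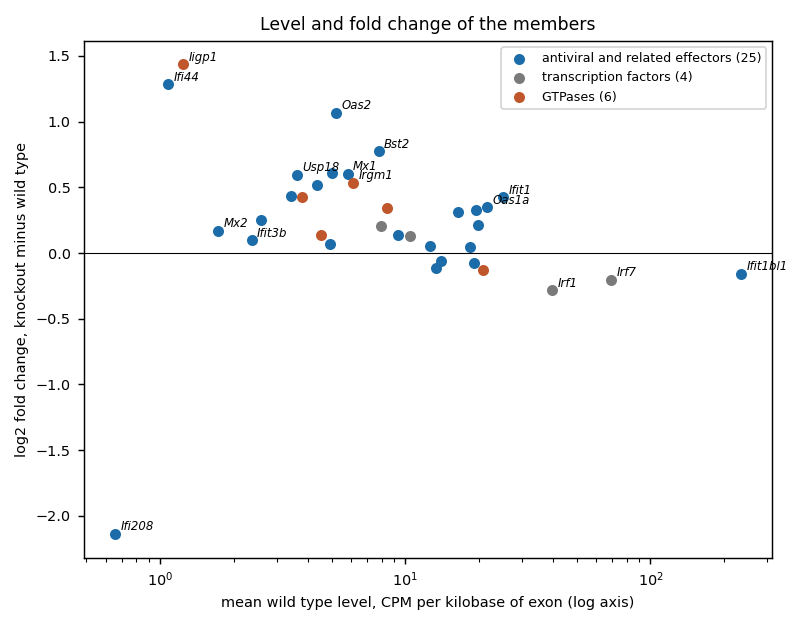
Mean wild type level in CPM per kilobase of exon, on a log axis, against the log2 fold change, knockout minus wild type, for the 35 members by role; selected genes are named. The largest changes, in Ifi208, Ifi44 and Iigp1, sit at the left, and the 3 genes at the right, Irf1, Irf7 and Ifit1bl1, lie below 0. The wild type level also enters the fold change.

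The rest of the pathway was described from 157 other genes, listed from knowledge of interferon signalling, of which 137 were tested. Of these 10 were higher and 9 lower by edgeR (7.30% and 6.57%, near the 9.43% and 5.97% of all genes), with a median log2 fold change of 0.01. Only 4 of these 19 calls were kept without every single library, in Il15, Rnaseh2b, Ifi209 and Wars.

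Ligands were scarce. Of 16 ligands and related cytokines 4 were tested and 7 had no count in any library, among them the interferon beta gene Ifnb1. The interferon kappa gene Ifnk had 172 counts in all, and its log2 fold change of 0.11 did not pass (edgeR adjusted p = 0.834). Il18 had 27.1 ± 6.31 CPM in wild type and 24.2 ± 7.06 CPM in knockout (SD, n = 3), and did not pass (edgeR adjusted p = 0.724). Ifng, the interferon gamma gene, had 22, 23 and 12 counts in wild type and 4, 4 and 7 counts in knockout, or 0.805 ± 0.260 and 0.326 ± 0.203 CPM (SD, n = 3). Its log2 fold change of -1.40 ± 0.48 (SE) did not pass (edgeR adjusted p = 0.0690), and the knockout level lay near the floor of 3 counts, 0.113 to 0.240 CPM per library. Il15, a cytokine that sustains lymphocytes in the epithelium, fell from 26.3 ± 3.96 to 16.6 ± 1.74 CPM (SD, n = 3), which is, on the log2 scale, a difference of -0.66 ± 0.13 (SE; by edgeR, adjusted p = 0.00727).

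Of 11 receptor, kinase and Stat genes 0 passed in either direction by edgeR, DESeq2 or limma-voom, and 1, Stat3, was lower at an unadjusted p under 0.05. Stat3 passed as lower with upper-quartile factors and with nuclear protein-coding genes only (edgeR adjusted p = 0.0333 and 0.0418), and Ifngr2 passed as higher with library totals only (0.00882). The receptor genes had log2 fold changes of -0.12 (Ifnar1), -0.36 (Ifnar2), -0.19 (Ifngr1), 0.12 (Ifngr2), -0.20 (Ifnlr1) and 0.02 (Il10rb). The kinase genes had -0.11 (Jak1), -0.10 (Jak2) and 0.01 (Tyk2), and Stat3 had -0.31.

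Of 19 tested sensor and adaptor genes 1 fell by edgeR (5.26%, against 5.97% of all genes), the repressor gene Irf2 (log2 fold change -0.39, edgeR adjusted p = 0.0260). None of the 19 rose by edgeR, DESeq2 or limma-voom, and 2 were higher at an unadjusted p under 0.05 by edgeR. Of 13 tested negative regulators 1 rose (7.69%, against 9.43% of all genes), the RNase H2 subunit gene Rnaseh2b (0.58, edgeR adjusted p = 0.00916). None of these 13 fell by edgeR, DESeq2 or limma-voom, and without adjustment 2 passed 0.05 downwards. Of 58 other tested antiviral genes 5 rose and 3 fell. These shares, 8.62% and 5.17%, were near the 9.43% and 5.97% of all genes, and the median log2 fold change was 0.02. The 5 that rose were Slfn5 (0.81), Slfn9 (0.69), the antiviral membrane protein gene Ifitm2 (0.65), Xaf1 (0.43) and Ifi27l2b (0.39). Beside Ifi209 and Ifi203, Ifitm1 fell (-1.57), from 25, 21 and 20 counts in wild type to 6, 8 and 2 in knockout. Its level in knockout replicate 3, 0.160 CPM, lay under that library's floor of 0.240 CPM. The call of Ifitm1 was lost in 4 of the 6 fits without a single library, and DESeq2 gave no adjusted p for it.

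Among the GTPases outside the member list calls went in both directions. Of 16 tested, 3 rose and 3 fell (18.8% each, against 9.43% and 5.97% of all genes). Irgm2, a guard like Irgm1, rose from 27.2 ± 4.89 to 38.1 ± 2.16 CPM, (SD, n = 3), and Gm12250, known as Irgb10, rose from 7.50 to 8.78 CPM in wild type to 10.6 to 12.9 CPM in knockout. Their log2 fold changes were 0.49 and 0.53 (edgeR adjusted p = 0.0254 and 0.0233), and F830016B08Rik rose by 1.28 at a level of 0.636 CPM in wild type. Gbp8 (-0.52), Gbp9 (-0.56) and 9930111J21Rik2 (-0.65) fell. Each of these 6 calls was lost in at least 3 of the 6 fits without a single library. Of 17 other genes known as targets of interferon gamma, 1 rose and 1 fell (5.88% each). The tryptophanyl-tRNA synthetase gene Wars rose by 0.46 (edgeR adjusted p = 0.00839) and the checkpoint ligand gene Cd274 fell by 0.49 on the log2 scale (edgeR adjusted p = 0.0339).

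**Figure D5:**
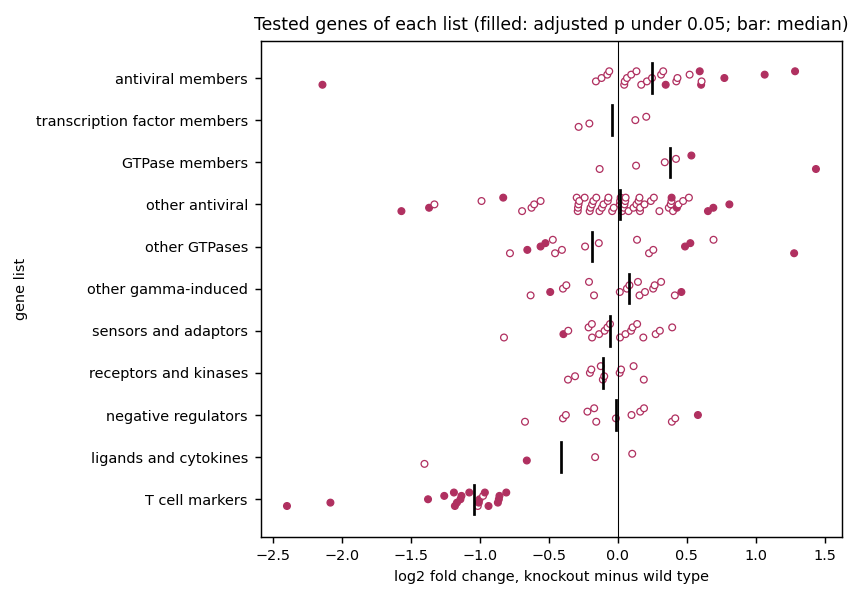
Log2 fold change, knockout minus wild type, of each tested gene in the member groups, the other interferon lists and the T cell markers, with filled points for an adjusted p under 0.05 and a bar at the list median. The antiviral members (0.25) and the GTPase members (0.38) have medians above 0, the receptors and kinases have no filled point, and the T cell markers all lie below 0.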

How the data were processed

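The counts were deposited as whole numbers per Ensembl gene with no scaling. The submitters' processing notes name HTSeq, Trimmomatic 0.39, STAR, DESeq2 and the build GRCm38, and the labels name a stranded total RNA kit with removal of ribosomal RNA. The authors' comparison holds log2 fold changes and p-values in the form DESeq2 writes, per the file headers. The deposited signal columns beside them are the raw counts times 1 factor per library (largest relative deviation 5e-15). The HTSeq summary lines, 58.4% of reads in wild type and 55.7% in knockout on average, were left out.

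Genes were kept by filterByExpr (minimum count 10, minimum total 15), scaled with TMM and fitted by genotype in edgeR (quasi-likelihood, robust, 2-sided test), with Benjamini-Hochberg adjustment over 16856 genes and a threshold of 0.05. CPM are TMM-scaled. Centred log2 CPM used a prior count of 2. Levels per kilobase used the union of exons in GENCODE M21, which held 45229 of the 46078 identifiers. All 257 symbols of the lists had a match there or through RefSeq synonyms. Repeats were counted once. R 4.3.3, edgeR 4.0.16, limma 3.58.1, DESeq2 1.42.0 and Biopython 1.88 were used, and the tests were tried on simulated counts. The labels name no molecular identifiers, and floors cover counting error only. Members and lists were chosen with earlier results of these data known. All members are named, with the receptors and kinases, of which 1 gene is not reported here, and, of the other lists, the genes past the threshold. The alternatives were other scalings, tools and filters, thinned counts, a replicate block and each library left out.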

Additional observations from a re-analysis of the deposited data

How the results depend on the processing

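Of the 9 members past the threshold, Bst2, Ifi208, Iigp1 and Mx1 kept their call under all alternatives run, and none changed direction. There were 3 libraries a group, and Ifng, with 72 counts in all, did not pass, while Ifitm1 with 82 did. Over the fits without single libraries, 4 to 9 members were higher and 1 to 2 lower, 2 to 7 antiviral members and 1 to 2 GTPase members were higher, 0 to 1 transcription factor was lower, and 4 to 10 other pathway genes were higher and 3 to 12 lower. With library totals only, 22 members, 15 antiviral members, 5 GTPase members, 2 transcription factors and 44 other pathway genes were higher, 3 other pathway genes were lower, and the medians were 0.53 for antiviral and 0.67 for GTPase members. With no filter, 16 members, 12 antiviral and 4 GTPase members were higher, and 19 other pathway genes were higher and 20 lower. At an adjusted p under 0.1, 13 members and 10 antiviral members were higher, and 17 other pathway genes were higher and 22 lower. With upper-quartile factors 2 members, 1 transcription factor among them, and 15 other pathway genes were lower, and with nuclear protein-coding genes only 14 other pathway genes were lower. The causes were not tested.

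Signs turned only in values not past the threshold with all libraries. With library totals only the log2 fold changes were 0.13 for Ifit1bl1, 0.21 for Oasl1, 0.22 for Rsad2, 0.17 for Zbp1, 0.0037 for Irf1, 0.083 for Irf7, 0.16 for Gbp2, 0.16 for Ifnar1, 0.099 for Ifngr1, 0.082 for Ifnlr1, 0.18 for Jak1 and 0.19 for Jak2. With upper-quartile factors they were -0.018 for Oas1g, -0.0023 for Ddx58, -0.022 for Parp14, -0.047 for Il10rb and -0.054 for Tyk2. Thinned counts gave 0.018 for Oasl1, -0.0084 for Mx2 and -0.11 for Il10rb, nuclear protein-coding genes only gave -0.011 for Il10rb and -0.020 for Tyk2, and a mean CPM of at least 1 gave -0.0043 for Tyk2. Without single libraries the ranges were -0.22 to 0.33 for Ifit3b, -0.28 to 0.068 for Ifit1bl1, -0.09 to 0.15 for Oas1g, -0.05 to 0.30 for Oas3, -0.28 to 0.10 for Rsad2, -0.26 to 0.40 for Mx2, -0.025 to 0.19 for Ddx58, -0.26 to 0.11 for Gbp2, -0.093 to 0.11 for Il10rb and -0.012 to 0.10 for Tyk2.

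Over all genes tested same-numbered libraries did not deviate together, with correlations of -0.010, -0.117 and -0.103, so the numbers are not taken as pairs. Among the members, however, replicate 2 was the highest of its group for 24 of 35 in wild type and 22 of 35 in knockout. With the replicate number as a block, 9 members were higher and 1 lower, and over all genes 1193 were higher and 868 lower. Oas1a then lost its call (edgeR adjusted p = 0.0661), and Ifit1 and Ifit2 passed (0.0473 and 0.0141).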
